A study of Mus musculus with 22 samples.

Results

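Hepcidin and 9 other genes of systemic iron handling were followed through bulk RNA sequencing of mouse liver. The 10 genes are Hamp, Hamp2, Bmp6, Tmprss6, Tfr2, Id1, Trf, Tfrc, Fth1 and Slc40a1, out of 24786 genes in each deposited table. They were chosen by name with results of these liver libraries known, so their liver values are given as a description, without a test. Values of the same genes in thymus and in CD8+ T cells sorted from liver were not used to choose them.

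The series describes dnTGFβRII Aire-/- mice as a model of overlapping autoimmune hepatitis and primary biliary cirrhosis. TG stands here for the transgene, a dominant-negative type II TGF-β receptor that is expressed in T cells from the Cd4 promoter. Liver was represented by 2 libraries each of CD8-depleted TG Aire-/- mice, TG Aire-/- mice without depletion and Aire+/+ mice without TG. There were 3 thymus libraries each from TG Aire-/-, TG Aire+/- and Aire-/- mice. The sorted CD8+ T cells gave 1 library of each of those 3 genotypes. All mice were C57BL/6, and every sample carries the same age range, 2 to 4 weeks. Where each sample lies within that range is not given, so age cannot be told apart from genotype or depletion. The agent, dose and timing of the CD8+ T cell depletion were not given in the sources used here. No liver group analysed here had the transgene or the loss of Aire alone, so their parts in a liver difference cannot be told apart.

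Hepcidin is a small peptide hormone that hepatocytes release into blood. It binds ferroportin, the iron exporter of macrophages, enterocytes and hepatocytes, and closes and removes it, so that less iron reaches plasma. Its gene is switched on by BMP6 from liver endothelial cells through SMAD proteins and by IL-6 through STAT3, and it is held down by the protease TMPRSS6 and by erythroferrone from erythroblasts. Transferrin carries iron in plasma, the transferrin receptor takes it up, and ferritin stores it.

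Hamp and its neighbour Hamp2 are near-copies of each other, and they had the widest range over the 6 livers of the 10 genes. For that reason the 250 bases before their RefSeq start sites are shown first, as given for GRCm38.p6 on the minus strand, Hamp at chr7:30944030-30944279 and Hamp2 at chr7:30924182-30924431. Capitals mark GGCGCC, the core of the BMP response element, and TTCNNNGAA, the palindrome that STAT proteins bind, and both strands were searched.
Hamp: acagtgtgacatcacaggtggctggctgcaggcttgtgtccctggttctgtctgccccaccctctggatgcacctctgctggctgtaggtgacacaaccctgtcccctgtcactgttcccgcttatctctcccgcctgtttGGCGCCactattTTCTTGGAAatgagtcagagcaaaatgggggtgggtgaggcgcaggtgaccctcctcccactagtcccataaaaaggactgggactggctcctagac
Hamp2: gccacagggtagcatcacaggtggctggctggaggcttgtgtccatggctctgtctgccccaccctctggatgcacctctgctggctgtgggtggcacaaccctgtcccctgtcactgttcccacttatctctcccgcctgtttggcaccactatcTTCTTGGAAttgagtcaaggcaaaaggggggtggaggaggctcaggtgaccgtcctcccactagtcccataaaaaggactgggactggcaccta

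The windows were identical at 227 of 247 aligned bases, 91.9%. The STAT palindrome begins 97 bases before the start of Hamp and 94 bases before that of Hamp2. GGCGCC begins 109 bases before the start of Hamp, and the aligned letters of Hamp2 are GGCACC, a difference written G4A with positions counted from 1 at the 5′ end of the hexamer in Hamp. Of 32851 RefSeq windows of that length, 9.59% held GGCGCC, 7.02% held TTCNNNGAA, and 0.368% held both. RefSeq windows were matched for 6 of the 10 genes, and besides Hamp only 1 of the Tfrc windows held GGCGCC, 89 bases before its start. A match describes letters and not a bound site.

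A second set of sequences is shown because it ties Fth1, Slc40a1 and Tfrc to cellular iron. Iron regulatory proteins bind a hairpin, the iron-responsive element, in these transcripts. Near the 5′ end of a transcript it blocks translation, and in the 3′ UTR of Tfrc it protects the mRNA from decay. Elements were searched for as the loop CAGTGN on a stem of 5 base pairs (G with T allowed) with a C 6 bases before the loop, in transcripts of the GENCODE annotation of GRCm38. Capitals mark the 6 bases of the loop, and the last 4 lines run 5′ to 3′ along the Tfrc 3′ UTR.
Fth1, 5′ UTR, chr19:9982732-9982761, plus strand: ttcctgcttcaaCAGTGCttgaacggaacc
Slc40a1, 5′ UTR, chr1:45925464-45925493, minus strand: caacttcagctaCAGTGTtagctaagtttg
Tfrc, 3′ UTR, chr16:32631219-32631248, plus strand: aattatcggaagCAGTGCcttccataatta
Tfrc, 3′ UTR, chr16:32631598-32631627, plus strand: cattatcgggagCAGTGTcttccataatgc
Tfrc, 3′ UTR, chr16:32631663-32631692, plus strand: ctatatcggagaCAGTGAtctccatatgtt
Tfrc, 3′ UTR, chr16:32631710-32631739, plus strand: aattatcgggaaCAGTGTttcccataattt

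The rule found an element in 21 of 20287 5′ UTRs, 0.104%, and in 117 of 20864 3′ UTRs, 0.561%, and UTRs differ in length.

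Some facts of the libraries bear on the results that follow. Inferred depth was 20300000 to 22750000 reads in liver, at which 3 reads on Hamp are worth 0.322 to 0.36 RPKM. This floor covers errors of counting alone. RPKM are reads scaled to gene length and depth, so levels can be set side by side between genes. By Xist and Ddx3y both CD8-depleted livers came from males, while the TG Aire-/- and Aire+/+ livers were each 1 male (replicate 1) and 1 female (replicate 2). Cd8a, the CD8 alpha chain, stood at 0 and 0.187 RPKM in CD8-depleted livers, at 8.76 and 3.75 RPKM in TG Aire-/- livers and at 0.161 and 0.22 RPKM in Aire+/+ livers. Alb, which marks hepatocytes, was between 18964 and 49396 RPKM in all 6 livers. The labels do not say that replicates were separate animals, so the spread between them may be partly technical.

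TG Aire-/- livers differed from both other groups in the summed markers of many cell types, as the plot of marker sums shows. Erythroid markers summed to 487 and 1081 RPKM in CD8-depleted, 30590 and 17485 RPKM in TG Aire-/- and 2333 and 2027 RPKM in Aire+/+ livers. The sums of 12 macrophage markers were 267 and 836 RPKM in CD8-depleted, 2008 and 1816 RPKM in TG Aire-/- and 318 and 276 RPKM in Aire+/+ livers. Endothelial markers stood at 36.4 and 41.9, 217 and 400, and 45.5 and 31.7 RPKM in the same order of groups. Against Aire+/+ livers, limma called 10 of 11 erythroid, 11 of 12 macrophage and 9 of 10 endothelial markers tested higher in TG Aire-/- livers and none lower, and 2 of 12 hepatocyte markers lower. In whole tissue, fewer cells of a type and less RNA per cell cannot be told apart.

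**Figure D1:**
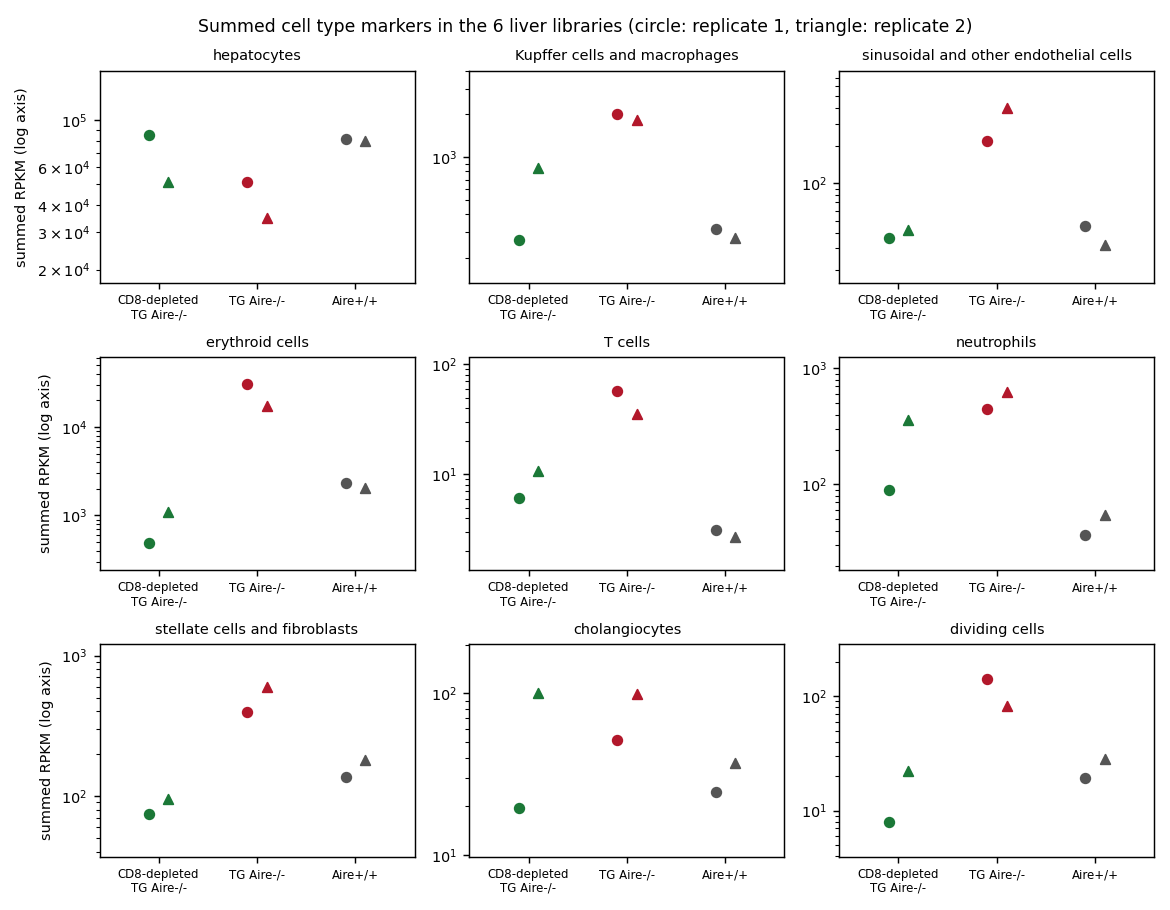
Summed RPKM of 9 lists of cell type markers (vertical axes, log scale) in the CD8-depleted TG Aire-/-, TG Aire-/- and Aire+/+ livers, 1 point per library (circle, replicate 1; triangle, replicate 2). Both TG Aire-/- livers lie above all other livers for macrophage, endothelial, erythroid, T cell, neutrophil, stellate and dividing cell markers, and below Aire+/+ livers for hepatocyte markers.

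The CD8-depleted livers also differed from each other. Saa1, which encodes the acute phase protein serum amyloid A, was at 17.6 RPKM in replicate 1 and 747 RPKM in replicate 2. Lcn2, which encodes the iron-scavenging protein lipocalin-2, was at 82.8 and 2346 RPKM. Mup20, a major urinary protein gene of hepatocytes, was at 52.7 and 15866 RPKM in CD8-depleted livers and at 10.6 RPKM or less elsewhere. Afp, a gene of fetal hepatocytes, was at 1.43 and 1.56 RPKM in CD8-depleted, 523 and 742 RPKM in TG Aire-/- and 6.27 and 4.69 RPKM in Aire+/+ livers, and its part in the hepatocyte genes' differences was not tested. Results that rest on this group are therefore given per library.

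Hamp was all but silent in both groups without depletion and among the most abundant transcripts in CD8-depleted livers. The gene lies at chr7:30942368-30944032 of GRCm38, minus strand. Its level was 2815 and 834 RPKM in CD8-depleted livers, 1.39 and 3.02 RPKM in TG Aire-/- livers, and 0 and 0.122 RPKM in Aire+/+ livers. The 3 groups did not overlap, and both Aire+/+ values lie under what 3 reads are worth. Hamp ranked 15 and 60 among all genes in CD8-depleted livers, with 0.783% and 0.215% of the summed RPKM, and 11270 and 9742 in TG Aire-/- livers.

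The mean of CD8-depleted livers, 1825 ± 1401 RPKM, was 828 times that of TG Aire-/- livers, 2.2 ± 1.15 RPKM (SD, n = 2 each). The fitted difference on the log2(RPKM + 1) scale was 8.95 (SE 0.549) between these groups. Between CD8-depleted and Aire+/+ livers it was 10.50 (SE 0.549), a value that rests on the pseudocount because Aire+/+ livers were at the floor. Leaving out CD8-depleted replicate 1 or 2 gave 8.07 and 9.83 against TG Aire-/- livers, so either library alone stood far above both TG Aire-/- livers. Between TG Aire-/- and Aire+/+ livers the fitted difference was 1.55 (SE 0.549).

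Hamp2, at chr7:30922372-30924681 on the minus strand, encodes a close relative of hepcidin whose part in iron handling is less clear. It reached 643 and 34.9 RPKM in CD8-depleted livers, 0.295 and 0.035 RPKM in TG Aire-/- livers and 1.7 and 4.9 RPKM in Aire+/+ livers. The groups again did not overlap, but the CD8-depleted libraries were far apart, and both TG Aire-/- values were under the worth of 3 reads. The order of the groups without depletion was opposite to that of Hamp, with TG Aire-/- livers below Aire+/+ livers. Fitted differences were 7.04 (SE 1.14) between CD8-depleted and TG Aire-/- livers and 5.25 (SE 1.14) between CD8-depleted and Aire+/+ livers.

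Their GENCODE transcripts were identical at 388 of 410 aligned bases, 94.6%, with a longest identical run of 87 bases. How reads that match both were counted is not given in the sources used here, and each gene alone is therefore uncertain. Their summed RPKM, which would change as well if shared reads were dropped or counted for both, was 3458 and 869 RPKM in CD8-depleted livers, 1.68 and 3.05 RPKM in TG Aire-/- livers, and 1.7 and 5.02 RPKM in Aire+/+ livers. The groups without depletion overlapped in the sum.

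**Figure D2:**
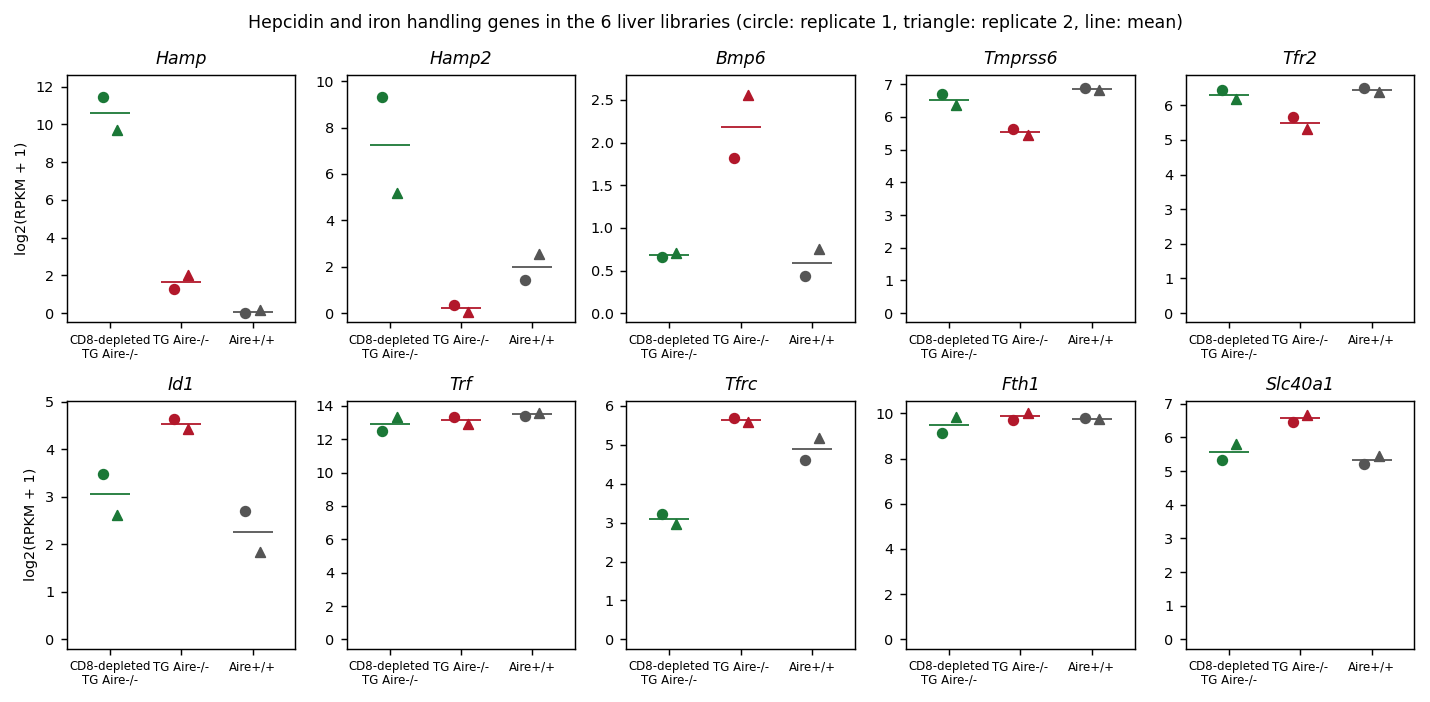
Level of each of the 10 genes as log2(RPKM + 1) (vertical axes, separate scales from 0) in CD8-depleted TG Aire-/-, TG Aire-/- and Aire+/+ livers, 1 point per library (circle, replicate 1; triangle, replicate 2) and a line at the group mean. Hamp reached 2815 and 834 RPKM in CD8-depleted livers, against at most 3.02 RPKM in all other livers, while Bmp6, Id1, Tfrc and Slc40a1 were highest in TG Aire-/- livers.

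Of the genes upstream of hepcidin, the ligand gene was highest in TG Aire-/- livers. Bmp6, the BMP ligand that endothelial cells raise when iron accumulates, was at 0.579 and 0.636 RPKM in CD8-depleted livers, 2.52 and 4.89 RPKM in TG Aire-/- livers and 0.354 and 0.679 RPKM in Aire+/+ livers. Both TG Aire-/- livers were above all others, and the other groups overlapped. It passed the filter on low values only through TG Aire-/- libraries, so it could only be counted with that group high. Fitted differences were 1.59 (SE 0.292) between TG Aire-/- and Aire+/+ livers and -1.50 (SE 0.292) between CD8-depleted and TG Aire-/- livers. The endothelial marker sums above moved with it, and their part in this difference was not tested.

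Tmprss6 encodes matriptase-2, the hepatocyte protease that cleaves the BMP co-receptor hemojuvelin and so lowers hepcidin. Its level was 102 and 81.6 RPKM in CD8-depleted livers, 48.1 and 43 RPKM in TG Aire-/- livers and 116 and 113 RPKM in Aire+/+ livers. No groups overlapped, with TG Aire-/- livers lowest. The mean was 91.7 ± 14.3 RPKM in CD8-depleted, 45.6 ± 3.54 RPKM in TG Aire-/- and 115 ± 2.43 RPKM in Aire+/+ livers (SD, n = 2 each).

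Tfr2 encodes transferrin receptor 2, a hepatocyte sensor of iron-loaded transferrin. Its levels were 85.6 and 71.5 RPKM in CD8-depleted livers, 49.9 and 38.9 RPKM in TG Aire-/- livers and 89.4 and 82.7 RPKM in Aire+/+ livers. The pattern was that of Tmprss6, except that CD8-depleted and Aire+/+ livers overlapped. Differences between TG Aire-/- and Aire+/+ livers were -1.32 (SE 0.275) for Tmprss6 and -0.95 (SE 0.281) for Tfr2 on the log2 scale. Hepatocyte markers summed to 84884 and 51075 RPKM in CD8-depleted, 51543 and 34692 RPKM in TG Aire-/- and 81788 and 80101 RPKM in Aire+/+ livers, and their part in both genes' differences was not tested.

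Id1, a helix-loop-helix inhibitor and a direct target of BMP and SMAD signals in many cell types, followed Bmp6 and not Hamp. It was at 10.2 and 5.13 RPKM in CD8-depleted livers, 24 and 20.4 RPKM in TG Aire-/- livers and 5.51 and 2.56 RPKM in Aire+/+ livers. Both TG Aire-/- livers were above all others, and CD8-depleted and Aire+/+ livers overlapped. The difference between TG Aire-/- and Aire+/+ livers was 2.26 (SE 0.4), and that between CD8-depleted and TG Aire-/- livers was -1.48 (SE 0.4). The endothelial marker sums above moved with Id1 as well, and their part in its differences was not tested.

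Trf encodes transferrin, which carries iron in plasma. Its level was at 5847 and 10055 RPKM in CD8-depleted livers, 10251 and 7738 RPKM in TG Aire-/- livers and 10755 and 12077 RPKM in Aire+/+ livers. CD8-depleted and TG Aire-/- livers overlapped, and both Aire+/+ livers were above all others. Fitted differences were -0.22 between CD8-depleted and TG Aire-/-, -0.57 between CD8-depleted and Aire+/+, and -0.36 between TG Aire-/- and Aire+/+ livers. All were smaller than their error (SE 0.581). Trf ranked between 2 and 6 among all genes in every liver.

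Tfrc encodes transferrin receptor 1, by which erythroblasts and dividing cells take up most of their iron, and it ordered the groups in full. Its levels were 8.27 and 6.82 RPKM in CD8-depleted livers, 50.9 and 46.6 RPKM in TG Aire-/- livers and 23.5 and 34.8 RPKM in Aire+/+ livers. CD8-depleted livers were the lowest and TG Aire-/- livers the highest, with no overlap. Differences were -2.55 (SE 0.287) between CD8-depleted and TG Aire-/- livers, -1.80 (SE 0.287) between CD8-depleted and Aire+/+ livers, and 0.75 (SE 0.287) between TG Aire-/- and Aire+/+ livers. Erythroid markers were lowest and highest in the same groups. Dividing cell markers were so in the mean, but CD8-depleted and Aire+/+ livers overlapped. The part of both in the Tfrc differences was not tested. Dividing cell markers summed to 7.94 and 22 RPKM in CD8-depleted, 142 and 82.1 RPKM in TG Aire-/- and 19.3 and 28.2 RPKM in Aire+/+ livers.

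Fth1, the ferritin heavy chain that oxidises and stores iron, overlapped between all groups. It was at 552 and 908 RPKM in CD8-depleted livers, 844 and 1026 RPKM in TG Aire-/- livers and 897 and 847 RPKM in Aire+/+ livers. Its fitted differences, -0.39, -0.30 and 0.09 (SE 0.402), were all smaller than their error. Slc40a1, which encodes ferroportin, the receptor and target of hepcidin, was at 39.3 and 55.3 RPKM in CD8-depleted livers, 87.1 and 101 RPKM in TG Aire-/- livers and 35.9 and 42.2 RPKM in Aire+/+ livers. Both TG Aire-/- livers were above all others, and CD8-depleted and Aire+/+ livers overlapped. The mean was 47.3 ± 11.3 RPKM in CD8-depleted, 94.1 ± 9.82 RPKM in TG Aire-/- and 39.1 ± 4.5 RPKM in Aire+/+ livers (SD, n = 2 each). Hepcidin acts on the ferroportin protein, which these libraries do not measure, and the macrophage marker sums above moved with the Slc40a1 mRNA in a part that was not tested.

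**Figure D3:**
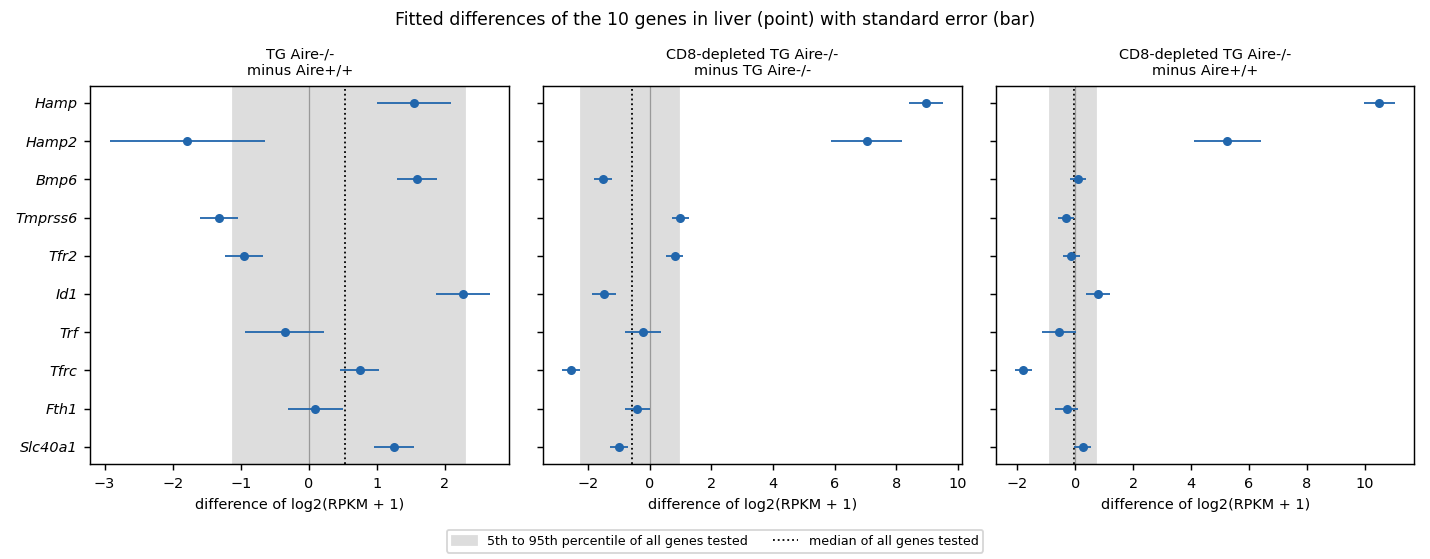
Fitted differences of log2(RPKM + 1) for the 10 genes (horizontal axes; point, difference; bar, SE) between TG Aire-/- and Aire+/+ livers, CD8-depleted and TG Aire-/- livers, and CD8-depleted and Aire+/+ livers, over the 5th to 95th percentile (grey) and the median (dotted) of all 12231 genes tested. Hamp stood at 8.95 and Tfrc at -2.55 between CD8-depleted and TG Aire-/- livers, outside the grey range on opposite sides.

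Counted against the threshold used for all genes (limma, Benjamini-Hochberg adjusted p of 0.05), 5 of the 10 were past it between TG Aire-/- and Aire+/+ livers, where 37.3% of all genes tested were. These were Slc40a1, Id1 and Bmp6, higher in TG Aire-/- livers beside 31.8% of all genes, and Tfr2 and Tmprss6, lower beside 5.50%. Between CD8-depleted and TG Aire-/- livers 7 of 10 were past it, beside 38.0% of all genes. Hamp, Hamp2 and Tmprss6 were higher in CD8-depleted livers, beside 4.49% of all genes, and Slc40a1, Id1, Bmp6 and Tfrc lower, beside 33.5%. Between CD8-depleted and Aire+/+ livers it was Hamp alone, 1 of 10, beside 0.548% of all genes, of which 0.221% were higher and 0.327% lower in CD8-depleted livers. Values did not overlap for 9, 8 and 5 of the 10 genes in these comparisons, beside 78.3%, 70.7% and 49.0% of all genes tested. Since these liver differences chose the genes, the counts are given for reference only, and the comparisons share libraries. They also rest on few libraries. The first count was 1 without Aire+/+ replicate 1 or TG Aire-/- replicate 2 and 2 without Aire+/+ replicate 2. The second was 3 without TG Aire-/- replicate 1 and 2 without TG Aire-/- replicate 2, and the third was 2 without CD8-depleted replicate 2.

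The median gene itself differed by 0.53 between TG Aire-/- and Aire+/+ livers, by -0.58 between CD8-depleted and TG Aire-/- livers and by -0.04 between CD8-depleted and Aire+/+ livers. Of all genes called, 85.3% were higher in TG Aire-/- than in Aire+/+ livers, and 64.3% when libraries were scaled by their median ratio. Likewise 11.8% of calls were higher in CD8-depleted than in TG Aire-/- livers, and 31.6% with that scaling. None of the 10 genes that was past the threshold in a comparison changed its direction in it under that or any other setting tried.

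The order of levels among the 10 genes differed between the groups. In Aire+/+ livers it ran Trf, Fth1, Tmprss6, Tfr2, Slc40a1, Tfrc, Id1, Hamp2, Bmp6 and Hamp, and only Id1 and Hamp2 among neighbours overlapped in their values. In CD8-depleted livers Hamp stood after Trf and overlapped with Fth1. Hamp2 came after Fth1 in the mean but overlapped with it, and its replicates lay on either side of Tmprss6, Tfr2 and Slc40a1. In TG Aire-/- livers Hamp2 was last, and Slc40a1 and Tfrc came between Fth1 and Tmprss6 in the mean. The values of Tfrc, Tmprss6 and Tfr2 overlapped there.

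Among 8088 genes with a log2 range of at least 1 over the 6 livers, the 5 whose pattern was most like Hamp were Snord57 (Pearson r 0.996), Scd1 (0.987), Cyp26a1 (0.983), Sycp3 (0.966) and Dreh (0.963). Snord57, Cyp26a1 and Dreh passed the filter on low values only through CD8-depleted libraries, which fixed the direction of their match to Hamp. Snord57 was at 1.83 and 1.46 RPKM there. Scd1, a fatty acid desaturase, was at 376 and 542 RPKM in CD8-depleted livers, 3.89 and 5.13 RPKM in TG Aire-/- livers and 1.47 and 2.48 RPKM in Aire+/+ livers. Cyp26a1, which breaks down retinoic acid, was at 12 and 6.6 RPKM in CD8-depleted livers, was listed at 0 in both TG Aire-/- livers, and was at 0.157 and 0.0399 RPKM in Aire+/+ livers. The 5 most like Tfrc were Ltbp4 (0.988), Hadhb (0.987), Tead2 (0.985), Igf2 (0.983) and Myrf (0.983). Igf2, a fetal growth factor, was listed at 0 and at 0.0429 RPKM in CD8-depleted livers, at 25.8 and 11.8 RPKM in TG Aire-/- livers and at 3.29 and 8.39 RPKM in Aire+/+ livers. These correlations describe 6 points that share 3 groups.

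Beyond the 10 genes, 138 other iron genes in 15 lists were read, 125 of which passed the filter. Between TG Aire-/- and Aire+/+ livers limma called 33 of the 125 higher and 10 lower in TG Aire-/- livers, 34.4% in all beside 37.3% of all genes tested. Between CD8-depleted and TG Aire-/- livers it called 9 higher and 29 lower in CD8-depleted livers, 30.4% beside 38.0%. Scaling by median ratio turned these splits into 23 higher and 20 lower, and 20 higher and 16 lower. The first count fell to 12, 14 and 17 genes without Aire+/+ replicate 2, Aire+/+ replicate 1 and TG Aire-/- replicate 2, and the second to 9 and 23 without TG Aire-/- replicate 2 and CD8-depleted replicate 1. The second was also 22 with sex as a covariate. Between CD8-depleted and Aire+/+ livers limma called none of the 125. There 15 had an unadjusted p under 0.05, the lowest adjusted p was 0.13, and 4 were called without CD8-depleted replicate 1.

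**Figure D4:**
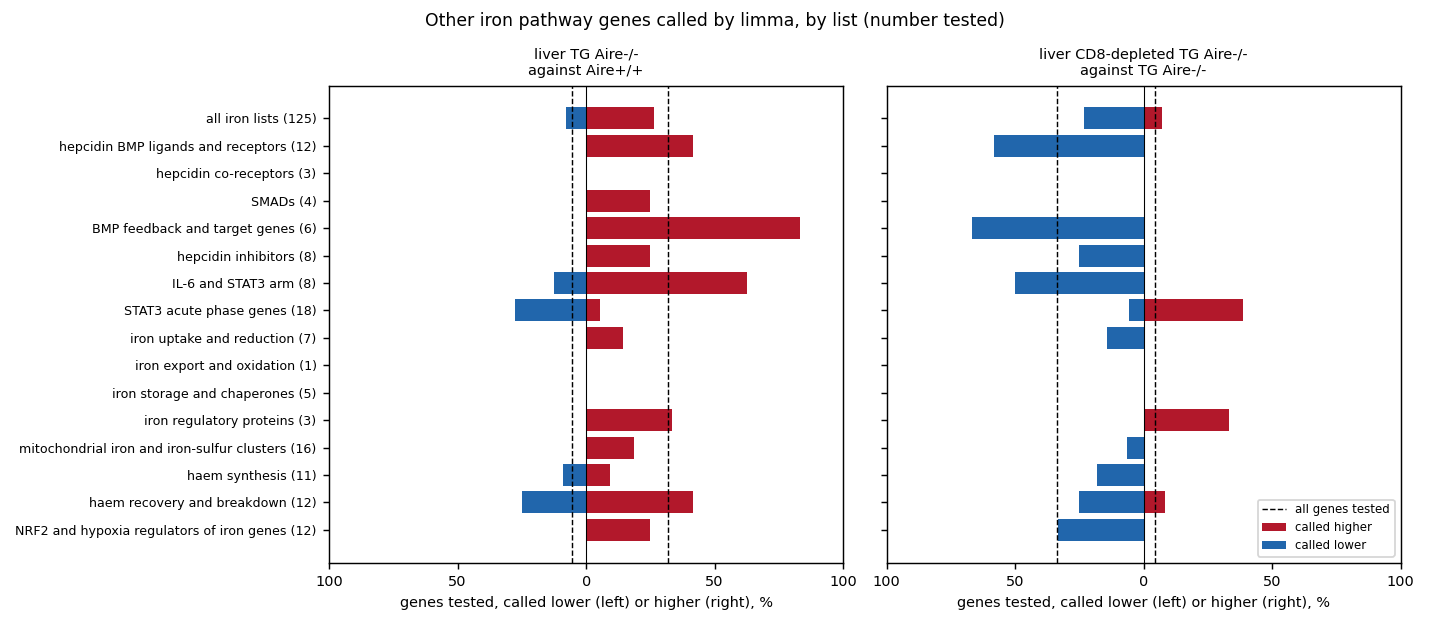
Share of the genes tested in each iron list (rows, number tested in brackets) that limma called lower (left, blue) or higher (right, red), in percent, for TG Aire-/- against Aire+/+ livers and CD8-depleted TG Aire-/- against TG Aire-/- livers; dashed lines give the shares over all genes tested. In TG Aire-/- against Aire+/+ livers, 5 of 6 BMP feedback and target genes were called higher and 5 of 18 acute phase genes lower, beside 31.8% and 5.50% of all genes.

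Of 12 BMP ligands and receptors besides Bmp6, 5 rose and none fell in TG Aire-/- against Aire+/+ livers, with a median difference of 1.15 beside 0.53 over all genes. These are 41.7% of the list beside 37.3% of all genes. Inhbb, the subunit of activin B, averaged 0.483 ± 0.0213 RPKM in CD8-depleted, 11.8 ± 7.54 RPKM in TG Aire-/- and 0.969 ± 0.0301 RPKM in Aire+/+ livers (SD, n = 2 each). Like Bmp6, it passed the filter only through TG Aire-/- libraries, which fixed the direction of its calls. Eng and Acvrl1, receptors of endothelial cells, rose by 2.22 and 2.06 (limma adjusted p 0.00214 and 0.00403), and Bmp4 rose by 1.49 (limma adjusted p 0.0105). In CD8-depleted against TG Aire-/- livers 7 of the 12 fell, Inhbb among them, with Eng at -2.70, Bmp10 at -2.52 and Acvrl1 at -1.78 (limma adjusted p 0.00153, 0.0233 and 0.00668). These 7 are 58.3% of the list, beside 33.5% of all genes called lower. Acvrl1 and Bmp10 also needed TG Aire-/- libraries to pass the filter, which favoured calls with that group high. Outside it Acvrl1 was at 0.438 and 1.58 RPKM in CD8-depleted and 0.659 and 0.51 RPKM in Aire+/+ livers. Bmp10 was at 0.497 and 0.0734 RPKM and at 0.725 and 2 RPKM in the same groups. The counts ran from 3 to 7 and from 3 to 8 over the alternatives. Endothelial markers moved with these genes, 9 of 10 higher in the first comparison and 9 of 10 lower in the second, and their part was not tested. The co-receptors hemojuvelin (Hfe2 in the tables), Hfe and Neo1 passed the threshold in neither comparison, with Hfe2 at 10.3 and 32.6 RPKM in CD8-depleted, 30.9 and 16 RPKM in TG Aire-/- and 35.3 and 23.2 RPKM in Aire+/+ livers.

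Of 6 BMP feedback and target genes other than Id1, 5 rose in TG Aire-/- against Aire+/+ livers (3 of 5 with median-ratio scaling), and 4 fell in CD8-depleted against TG Aire-/- livers (1 of 5 with that scaling). Of all genes tested, 31.8% were called higher in the first comparison and 33.5% lower in the second. Bambi, a BMP decoy receptor gene and 1 of those 4, passed the filter only through TG Aire-/- libraries. Atoh8 and Id2 differed by -0.02 and -0.17 in the second comparison and were not called. Id3, a relative of Id1, averaged 29.6 ± 2.9 RPKM in CD8-depleted, 78.4 ± 0.28 RPKM in TG Aire-/- and 18.8 ± 5.9 RPKM in Aire+/+ livers (SD, n = 2 each). The inhibitory SMADs rose in TG Aire-/- against Aire+/+ livers, Smad6 by 1.88 and Smad7 by 1.56 (limma adjusted p 0.0039 and 0.02), and Id2 rose by 1.20 (limma adjusted p 0.0282). Smad6, Id3 and Smad7 were at -1.89, -1.38 and -1.18 in CD8-depleted against TG Aire-/- livers (limma adjusted p 0.00396, 0.0119 and 0.0481), the Smad7 call holding in 3 of 14 alternatives. Endothelial markers moved in the direction of these genes, 9 of 10 higher and then 9 of 10 lower, and their part was not tested. Of 4 SMADs, Smad1, a BMP-activated transducer, rose by 1.61 in TG Aire-/- against Aire+/+ livers (limma adjusted p 0.018), and none was called between CD8-depleted and TG Aire-/- livers.

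Of 8 hepcidin inhibitors, 2 rose in TG Aire-/- against Aire+/+ livers and the same number fell in CD8-depleted against TG Aire-/- livers, 25.0% each time beside 37.3% and 38.0% of all genes. Erfe, the gene of erythroferrone, averaged 0.00751 ± 0.00761 RPKM in CD8-depleted, 1.52 ± 0.584 RPKM in TG Aire-/- and 0.107 ± 0.0768 RPKM in Aire+/+ livers (SD, n = 2 each). It passed the filter only through TG Aire-/- libraries, so only calls with that group high were possible. The erythroid marker sums moved with it in a part that was not tested. Fkbp1a, which encodes a binding protein of type I BMP receptors, was at 1.77 and -1.94 in the same comparisons (limma adjusted p 0.0126 and 0.00944).

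Genes listed for the IL-6 arm and the listed acute phase genes did not share a direction. Of 8 genes in the arm list, 5 rose and 1 fell in TG Aire-/- against Aire+/+ livers, beside 31.8% and 5.50% of all genes. The list also holds Il1b, the gene of a cytokine other than IL-6. Those that rose included Il1b at 2.86, Socs3 at 2.19, the receptor subunit Il6st at 1.87 and the kinase Jak1 at 1.73 (limma adjusted p 0.011, 0.00593, 0.00603 and 0.00666). Stat3 and Il6ra were not called there (limma adjusted p 0.133 and 0.346). In CD8-depleted against TG Aire-/- livers 4 fell, beside 33.5% of all genes, with Il6st at -1.64, Socs3 at -1.59, Jak2 at -1.36 and Jak1 at -1.32 (limma adjusted p 0.0095, 0.0171, 0.0233 and 0.0169). Il6 itself was at 0.212 RPKM or less in all 6 livers, and Il22 was listed at 0 in all of them. Macrophage markers moved in the direction of most arm gene calls, 11 of 12 higher and then 8 of 12 lower. Neutrophil markers did so too, 8 of 9 higher and then 3 of 9 lower, and the part of these cells was not tested.

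Of 18 acute phase genes, 1 rose and 5 fell in TG Aire-/- against Aire+/+ livers, beside 31.8% and 5.50% of all genes (1 to 12 fell over the alternatives). Saa4 averaged 75.8 ± 52 RPKM in CD8-depleted, 8.95 ± 3.08 RPKM in TG Aire-/- and 198 ± 10.3 RPKM in Aire+/+ livers (SD, n = 2 each), and its difference between TG Aire-/- and Aire+/+ livers was -4.36 (limma adjusted p 0.00207). Itih4 and Fgg fell, with differences of -1.99 and -1.32 (limma adjusted p 0.00708 and 0.0326), while Saa3, which macrophages also express, rose by 2.44 (limma adjusted p 0.0071). In CD8-depleted against TG Aire-/- livers 7 rose and 1 fell, beside 4.49% and 33.5% of all genes (0 to 11 rose over the alternatives). Saa2, Saa1, Orm1 and Saa4 were at 5.24, 4.58, 4.02 and 2.80 (limma adjusted p 0.0186, 0.0378, 0.014 and 0.00645). The libraries behind these calls were far apart, with Saa2 at 11.5 and 354 RPKM and Orm1 at 263 and 2656 RPKM in CD8-depleted livers. Hamp was higher in replicate 1 of this group, as were 5 of the 18 acute phase genes, and 13 were higher in replicate 2. Median differences of the 18 genes were -1.11 and 1.15 in these comparisons, beside -0.95 and 0.73 for hepatocyte markers. Fgb is in both lists, and the part of hepatocyte content in the acute phase differences was not tested.

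Genes of iron uptake, export, storage and cluster assembly gave few calls. Steap1 was the only call among 7 uptake genes in either comparison and passed the filter only through TG Aire-/- libraries. Its means were 0.214 ± 0.145 RPKM in CD8-depleted, 1.95 ± 1.02 RPKM in TG Aire-/- and 0.0392 ± 0.0554 RPKM in Aire+/+ livers (SD, n = 2 each). None of 5 storage genes was called in either comparison, and the ferritin light chain gene Ftl1 was at 880 and 2307 RPKM in CD8-depleted, 1947 and 1615 RPKM in TG Aire-/- and 1341 and 1015 RPKM in Aire+/+ livers. Of 3 iron regulatory genes, Aco1, which encodes iron regulatory protein 1, rose by 0.88 in CD8-depleted against TG Aire-/- livers (limma adjusted p 0.03). Fbxl5, whose product degrades iron regulatory protein 2, rose by 1.25 in TG Aire-/- against Aire+/+ livers (limma adjusted p 0.0436). The Aco1 and Fbxl5 calls held in 6 and 5 of 14 alternatives. Of 16 genes of mitochondrial iron and iron-sulfur clusters, 3 rose in TG Aire-/- against Aire+/+ livers, Hscb by 1.60, Slc25a37 by 1.05 and Isca1 by 0.89 (limma adjusted p 0.0074, 0.0256 and 0.0491), and Hscb alone fell, to a difference of -1.17, in CD8-depleted against TG Aire-/- livers (limma adjusted p 0.0213). These calls are 18.8% and 6.25% of the list, beside 37.3% and 38.0% of all genes. The Isca1 call held in 4 of 14 alternatives, and that fall of Hscb in 6.

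Haem genes gave the single strongest rise among the named iron genes in TG Aire-/- livers. Hmox1, haem oxygenase 1, which frees iron from haem, averaged 17.2 ± 8.47 RPKM in CD8-depleted, 216 ± 128 RPKM in TG Aire-/- and 12.9 ± 1.42 RPKM in Aire+/+ livers (SD, n = 2 each). Its difference was 3.83 (SE 0.488) between TG Aire-/- and Aire+/+ livers and -3.52 (SE 0.488) between CD8-depleted and TG Aire-/- livers (limma adjusted p 0.00251 and 0.00303). Of 12 genes of haem recovery, 5 rose and 3 fell in TG Aire-/- against Aire+/+ livers, beside 31.8% and 5.50% of all genes. Called with Hmox1 were the haemoglobin scavenger receptor Cd163 at 1.52, the haem transporter Slc48a1 at 1.43 and the haem-binding Hebp1 at -1.37 (limma adjusted p 0.00835, 0.0132 and 0.0393). In CD8-depleted against TG Aire-/- livers 3 fell, Hmox1, Blvra at -1.47 and Slc48a1 at -1.24, and Pgrmc1 rose by 1.15 (limma adjusted p 0.00303, 0.00539, 0.0215 and 0.0313). Of all genes, 33.5% fell and 4.49% rose there. The macrophage marker sums moved with Hmox1, Cd163 and Slc48a1, and their part was not tested.

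Of 11 haem synthesis genes, Alas2, the first enzyme of the erythroid pathway, rose by 2.31 in TG Aire-/- against Aire+/+ livers and was at -2.59 in CD8-depleted against TG Aire-/- livers (limma adjusted p 0.0177 and 0.0122), beside the erythroid marker sums, whose part was not tested. Cpox, a later enzyme of haem synthesis, fell by 0.87 on the log2 scale in the first comparison (limma adjusted p 0.0363). Among 12 NRF2 and hypoxia genes, 3 rose in TG Aire-/- against Aire+/+ livers (25.0%, beside 31.8% of all genes, and 0 to 8 genes over the alternatives), the oxygen sensors Egln3 and Egln1 by 2.25 and 1.45 and Nfe2l2 by 1.23 (limma adjusted p 0.0234, 0.0162 and 0.0281). In CD8-depleted against TG Aire-/- livers 4 fell (33.3%, beside 33.5% of all genes, and 1 to 7 genes over the alternatives), with Egln3 at -3.15, Egln1 at -1.91, Vhl at -1.05 and Keap1 at -0.81 (limma adjusted p 0.00783, 0.00675, 0.026 and 0.035). The Vhl and Keap1 calls held in 6 and 5 of 14 alternatives. Both comparisons use the same TG Aire-/- libraries, so a rise in one and a fall in the other are not separate observations.

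Thymus groups are named here by their labels. Aire was at 20.2, 6.5 and 7.63 RPKM in thymus labelled TG Aire-/-, 13.6, 10.9 and 10.2 RPKM in thymus labelled TG Aire+/- and 27.2, 29.5 and 16 RPKM in thymus labelled Aire-/-. The gene's RPKM therefore did not separate the labelled genotypes. Which part of the gene is deleted was not given in the sources used here, and reads from any part that remains would count, so these values do not check the labels.

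In thymus, whose table was normalized separately, 6 of the 10 genes passed the filter and none was called in any of 3 comparisons by limma. The share of all 12568 genes called was 0% for TG Aire-/- against TG Aire+/-, 0.0159% for TG Aire-/- against Aire-/- and 0% for TG Aire+/- against Aire-/-. The 6 genes had adjusted p-values between 0.61 and 0.9999, and none had an unadjusted p under 0.05, as 279, 949 and 118 of all genes had. The median gene differed by -0.14, -0.11 and 0.01 in these comparisons. TG Aire-/- replicate 1 stood apart from the other thymus libraries, with T cell markers at 793 RPKM against 2037 to 3305 RPKM in the other 8, and macrophage markers at 1530 RPKM against 174 to 336 RPKM.

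Hamp was at 5.14, 1.19 and 0.709 RPKM in TG Aire-/- thymus, 3.81, 1.66 and 2.4 RPKM in TG Aire+/- thymus and 5.45, 2.84 and 1.42 RPKM in Aire-/- thymus. All 9 values exceeded what 3 reads are worth and the groups overlapped. The difference between TG Aire-/- and Aire-/- thymus was -0.46 (SE 0.506, limma adjusted p 0.75), and -1.02 without TG Aire-/- replicate 1, with no call either way. Hamp2 was at 0.376 RPKM or less in every thymus. Tfrc, which cycling thymocytes use, averaged 22.8 ± 2.72 RPKM in TG Aire-/-, 20.7 ± 2.82 RPKM in TG Aire+/- and 17.5 ± 3.19 RPKM in Aire-/- thymus (SD, n = 3 each), a difference of 0.37 (SE 0.204, limma adjusted p 0.61) between TG Aire-/- and Aire-/-.

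Fth1 was at 602, 314 and 417 RPKM in TG Aire-/- thymus, 420, 477 and 439 RPKM in TG Aire+/- thymus and 545, 346 and 386 RPKM in Aire-/- thymus, with all groups overlapping. Id1 was at 27.5, 9.49 and 8.14 RPKM in TG Aire-/-, 15.9, 9.56 and 6.79 RPKM in TG Aire+/- and 14.6, 4.59 and 6.53 RPKM in Aire-/- thymus, and the highest library of each group was replicate 1. The Id1 difference between TG Aire-/- and TG Aire+/- thymus was 0.32 (SE 0.508, limma adjusted p 0.9), and -0.19 without TG Aire-/- replicate 1. Slc40a1 stood between 5.35 and 14.8 RPKM, and Trf between 12.5 and 30.8 RPKM. Bmp6 reached 2.35 RPKM in TG Aire-/- replicate 1 and 1.06 RPKM or less in the other 8 thymus libraries. Tfr2 and Tmprss6 were at 0.0611 RPKM or less in all 9.

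**Figure D5:**
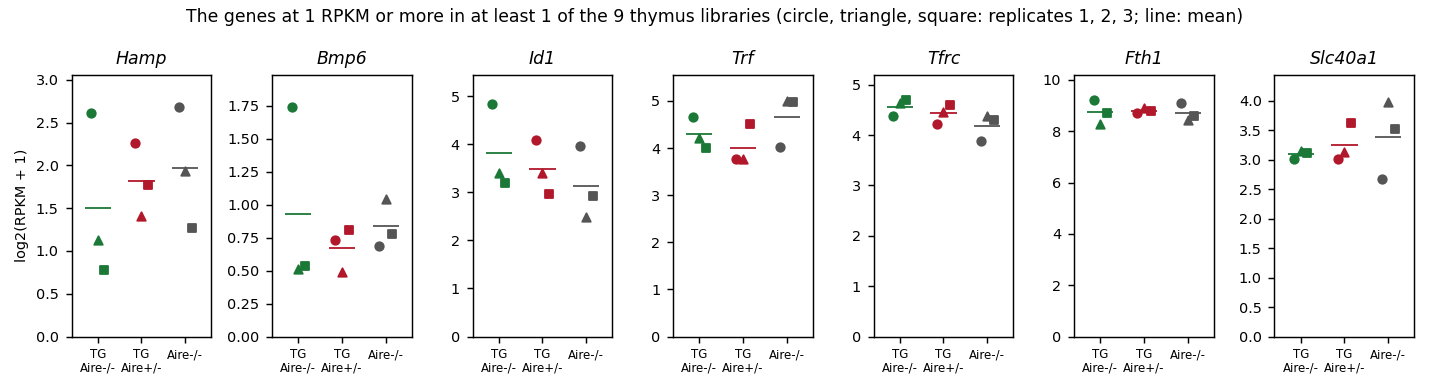
Level as log2(RPKM + 1) (vertical axes, separate scales from 0) of the 7 genes that reached 1 RPKM in a thymus library, in TG Aire-/-, TG Aire+/- and Aire-/- thymus, 1 point per library (circle, triangle and square for replicates 1, 2 and 3) and a line at the mean. The 3 groups overlap for all 7 genes.

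In CD8+ T cells sorted from liver there was 1 library per genotype and no test. Fth1 was at 191 RPKM in TG Aire-/-, 222 RPKM in TG Aire+/- and 209 RPKM in Aire-/- cells. Tfrc was at 11.5 RPKM in TG Aire-/-, 24.1 RPKM in TG Aire+/- and 21.1 RPKM in Aire-/- cells, lowest in the TG Aire-/- library. The other genes were low. Hamp was at 1.61, 0.0439 and 1.11 RPKM in TG Aire-/-, TG Aire+/- and Aire-/- cells, the middle value being below the worth of 3 reads.

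Id1, Trf, Slc40a1 and Tmprss6 were at 1.07, 0.703, 0.456 and 0.776 RPKM in TG Aire-/- cells and at 1.13, 1.05, 0.0407 and 0.325 RPKM in TG Aire+/- cells. They were highest in Aire-/- cells, at 5.43, 4.66, 1.64 and 1.06 RPKM. Erythroid markers summed to 445 RPKM in TG Aire-/-, 365 RPKM in TG Aire+/- and 26993 RPKM in Aire-/- cells. Macrophage markers summed to 54.4 RPKM in TG Aire-/-, 13.6 RPKM in TG Aire+/- and 389 RPKM in Aire-/- cells. Neutrophil markers summed to 608 RPKM in TG Aire-/-, 16 RPKM in TG Aire+/- and 1506 RPKM in Aire-/- cells, lowest where Hamp, Slc40a1 and Tmprss6 were lowest. The part of these cell types in the differences was not tested.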

How the data were processed

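The authors deposited RPKM values per gene in 3 tables (second liver batch, thymus, liver CD8+ T cells), and per the submitters' processing notes STAR 2.5.2b and mm10 were used. The annotation and counting tool were not given in the sources used here. Values were used for 18 of 22 samples, and 4 liver samples without a batch number were not analysed here. Liver and thymus were each fitted with limma 3.58.1 in R 4.3.3 (lmFit, eBayes with trend, two-sided) on log2(RPKM + 1), which understates changes of low genes, with all 3 groups in 1 fit. Genes needed an RPKM of 1 in at least 2 liver or 3 thymus libraries, and p-values were adjusted over all genes by the Benjamini-Hochberg method with a threshold of 0.05. All 10 genes passed in liver and 6 in thymus.

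Depth was inferred from steps between low RPKM values. Of values up to 5 reads, 41.2% to 47% in liver were whole within 0.1 read, where chance gives 20% at a depth fixed beforehand, too few to recover reads. Each depth was picked as the one with the highest such share, so the excess over 20% is overstated. Thymus depth was 22350000 to 29900000 reads, and CD8+ T cell depth 21000000 to 22050000.

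The 10 genes, the lists and the tests were chosen with earlier results of these data known. Named list genes were up to 4 per list and comparison with the largest called differences, and list genes whose role a sentence needed, such as Lcn2, Ftl1 and Hfe2. A gene that this rule named among the haem synthesis genes is not reported here. Scd1, Cyp26a1 and Igf2 were singled out of the 5 most similar genes, and Mup20, Afp, Atoh8 and Aire named, after their values were seen. The fitting procedure was tested on simulated data. Alternatives were another pseudocount (0.1), no filter, scaling by median ratio or to a sum of 1000000, a replicate block, leaving out the trend, the third group or each replicate and, added after seeing the data, sex as a covariate. Sequences come from RefSeq windows (GRCm38.p6) and GENCODE transcripts (GRCm38).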

Additional observations from a re-analysis of the deposited data

How the results depend on the processing

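The number of the 10 genes past the threshold between CD8-depleted and Aire+/+ livers was 1, and 2 with a pseudocount of 0.1. Leaving out 1 library gave 1 to 2 there, 2 to 6 of 10 between CD8-depleted and TG Aire-/- livers (7 with all libraries) and 1 to 7 between TG Aire-/- and Aire+/+ livers (5 with all). The count of other iron genes called between CD8-depleted and TG Aire-/- livers, 38, was 25 without a filter and 22 with sex as a covariate. The covariate was chosen after seeing the data. Leaving out 1 library gave 9 to 41 there, 12 to 54 between TG Aire-/- and Aire+/+ livers (43 with all) and 0 to 4 between CD8-depleted and Aire+/+ livers (0 with all). With 1 library left out a group has 1 library, which is assumed to vary like the others. The causes were not tested. No setting turned the direction of the 33 and 31 named calls of other iron genes, of which 11 and 8 were called in every alternative that tested them. Those include Inhbb in both comparisons, Steap1 in the first and Erfe in the second, which passed the filter only through TG Aire-/- libraries. Acvrl1, which also needed TG Aire-/- libraries to pass it, is among them in the first.

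The labels do not say that replicate numbers pair the samples, and deviations of same-numbered livers correlated at 0.29, -0.09 and -0.15. With the replicate block, 5 of the 10 genes were past the threshold between TG Aire-/- and Aire+/+ livers, 7 between CD8-depleted and TG Aire-/- livers and 1 between CD8-depleted and Aire+/+ livers. Counts of other iron genes were 40, 36 and 0, and no thymus call was made.

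With 2 libraries a group the spread in liver is poorly known, and both CD8-depleted livers are male, while the other groups hold 1 male and 1 female. Levels under about 0.36 RPKM of Hamp cannot be told from none at this depth.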
